A study of Nothobranchius furzeri with 12 samples.

Results

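The genes described here were those whose RNA level varied between fish in both tissues sequenced, brain and skin, in Nothobranchius furzeri (the turquoise killifish), and varied alike in the 2 tissues. They numbered 56 of 23546 genes in the deposited table. A gene was taken when its log2(CPM + 0.5) in brain correlated with that in skin at a Pearson r above 0.9 over fish 8, 38, 41 and 46, and its range was at least 1.5 (2.83-fold) in each tissue. CPM is the read count scaled to 1000000 reads in genes. The ratio of the highest to the lowest CPM + 0.5 of the 6 brains also had to be below 10. These values chose the genes, so r, the ranges and the order of the fish are given below as a description, with no test.

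Total RNA of brain and of skin was sequenced from fish of the strain MZM-0410 (spelled MZM-0401 in the design text) at an age of 39 weeks. No treatment is named, and every fish shared strain and age. Each library came from 1 tissue of 1 fish, named by its number. Brains of fish 6, 8, 24, 38, 41 and 46 and skins of fish 6, 8, 12, 38, 41 and 46 were sequenced, and the 4 fish of the selection were those with both tissues other than fish 6, whose skin library stood apart from its label.

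The killifish is an annual fish with a short life, kept in laboratories for research on ageing, and MZM-0410 is a strain derived from wild-caught fish. Brain is made of neurons and glia, and skin of epidermis, dermis and scales, while both hold blood vessels and immune cells. The level of a gene in a bulk tissue reflects both the cells present and the RNA in each cell, so fewer cells of a type and less RNA per cell cannot be told apart here. The identifiers in the table are not paired with gene names, and 0 of them matched a RefSeq gene table of this species, so no name, function, position or sequence is given for any gene.

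Brain libraries held 17.6 to 22.7 M reads in genes (M, 1000000) and skin libraries 9.10 to 27.1 M. Over the 14478 genes that reached 5 CPM in brain, the library labelled skin of fish 6 lay a median of 0.138 to 0.177 on the log2 scale from the 6 brains and 1.47 to 1.90 from the 5 other skins, so its values below are given apart from those of the other skins. Skin of fish 41 held low levels of genes otherwise near 0 in skin, called the brain trace below. Over 413 genes that reached 20 CPM in brain and did not pass 0.3 CPM in any skin of fish 8, 12, 38 or 46, its level was a median of 1.90% of that in the brain of fish 41 (interquartile range 1.56 to 2.25%).

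Few genes varied this much in brain. A range of at least 1.5 was met by 522 genes over the 4 brains and by 3181 genes over the 4 skins, and 211 genes met both. The bound on the 6 brains left 193. Of these, 56 had r above 0.9, which is 29% of the 193. In the other 137 genes r reached at most 0.890, and 21 of them had r between 0.8 and 0.9. Of the 193 genes, 31 had r below 0 and 1 had r below -0.9. Just inside the limits, the lowest r among the 56 genes was 0.903 and the lowest range 1.52. Just outside, the widest smaller range of a gene with r above 0.9 was 1.48, and 10 genes met r and both ranges but not the brain bound.

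The 56 genes were of low to moderate abundance. Their mean over the 4 fish was a median of 6.74 CPM in brain and 7.36 CPM in skin. The most abundant reached 266 CPM in brain and 1007 CPM in skin. In 22 of the 56 genes the lowest of the 8 libraries had fewer than 10 reads, in 2 of them it had 0 reads, and in 9 every one of the 8 had at least 100 reads. In 10 of the 56 the mean reached 10 CPM in each tissue. Ratios between fish are therefore imprecise for many of these genes, and the shallowest library, skin of fish 46, had fewer than 10 reads in 10 of them.

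Skin varied more widely than brain within the set. The highest of the 4 brains was a median of 3.69-fold above the lowest (interquartile range 3.21 to 4.70, on the CPM + 0.5 scale), against a median of 4.76-fold between the 4 skins (3.69 to 8.11). The range was wider in skin for 39 genes and wider in brain for 17. The brain bound caps the first of these values and no such bound held in skin. The lengths that the authors' RPKM implies (reads scaled to gene length and library total) were a median of 1976 bases in the 56 genes (interquartile range 823 to 3761), against 2324 bases over the genes with a count (1096 to 4237).

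The fish did not contribute evenly. In 49 of the 56 genes the same fish was highest in brain and in skin. It was fish 46 in 21 genes, fish 38 in 12, fish 8 in 9 and fish 41 in 7. The same fish was lowest in both tissues in 40 genes, namely fish 41 in 17, fish 8 in 14, fish 46 in 6 and fish 38 in 3. All 4 fish stood in the same order in both tissues in 27 genes. The r above 0.9 fixes much of this agreement. The share of fish 46 was not particular to the 56 genes, since among the 193 it was highest in brain in 78, highest in skin in 90 and highest in both in 62.

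**Figure D1:**
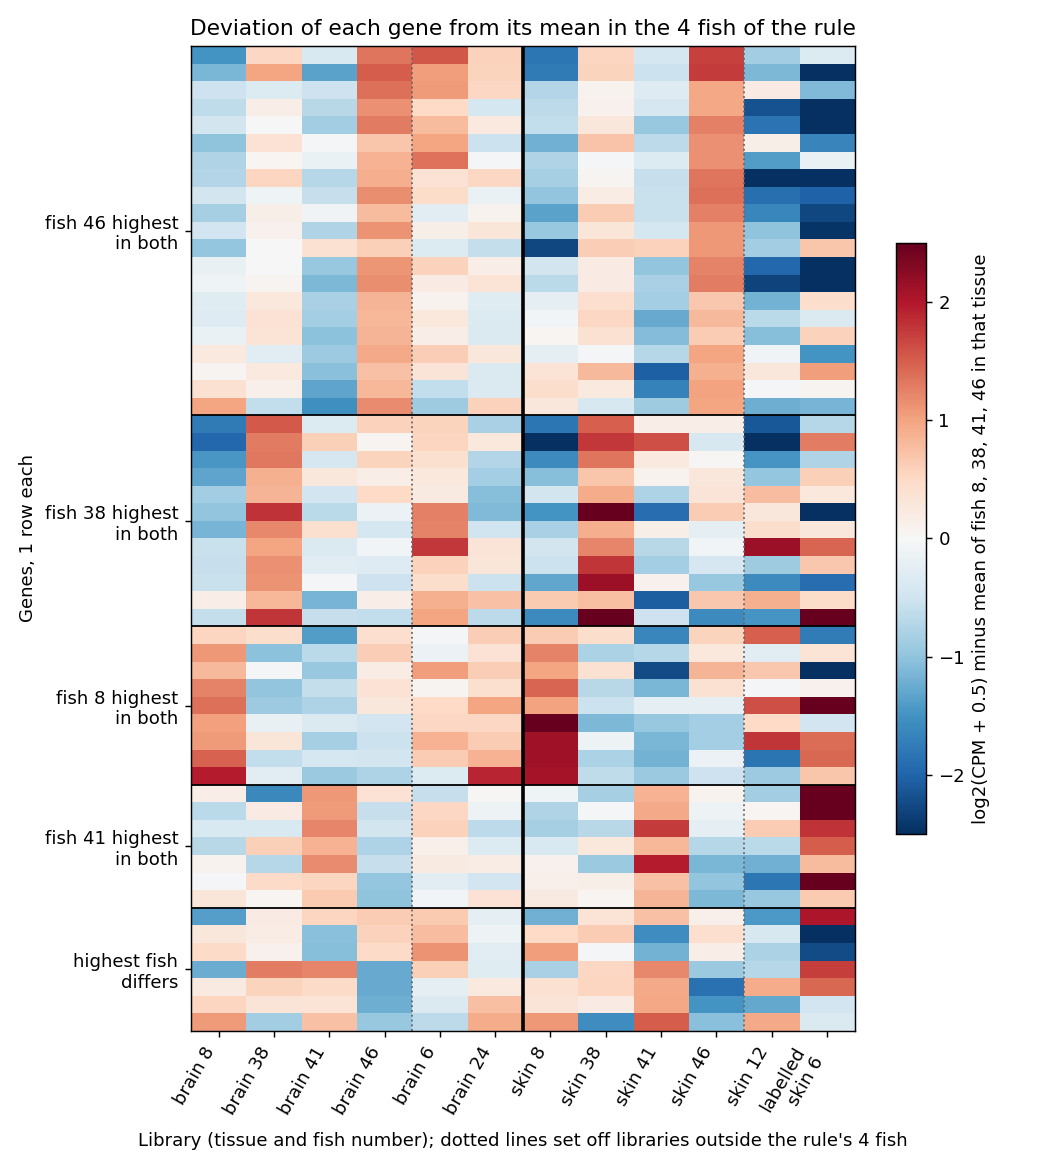
Each row is 1 of the 56 genes and each column a library, with colour showing log2(CPM + 0.5) minus the mean of fish 8, 38, 41 and 46 in that tissue (red above, blue below, cut at 2.5 either way). Rows are grouped by the fish that was highest in both tissues (21, 12, 9 and 7 genes, and 7 where it differed), and dotted lines set off brains of fish 6 and 24, skin of fish 12 and the library labelled skin of fish 6.

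Libraries outside the 4 fish were set against the same tissue means. In the 12 genes highest in fish 38, the brain of fish 6 lay above the mean of the 4 brains in 12, with a median deviation of 0.57 on the log2 scale over the group, and the brain of fish 24 in 4. In the 9 genes highest in fish 8, the brain of fish 24 was above the mean in 9, with a median deviation of 0.62, and the brain of fish 6 in 6. In the 21 genes highest in fish 46, the brain of fish 6 was above the mean in 17, with a median deviation of 0.37 over the 21, and the brain of fish 24 in 11. In the 7 genes highest in fish 41, the brains of fish 6 and 24 were above the mean in 4 and 3. Skin of fish 12 was below the mean of the 4 skins in 18 of the 21 genes highest in fish 46, with a median deviation of -1.13 over the 21. It was below that mean in 7 of the 12 genes of fish 38, in 4 of the 9 of fish 8 and in 5 of the 7 of fish 41. In the 7 genes where the highest fish differed, the brains of fish 6 and 24 were above in 4 and 3, and skin of fish 12 below in 5. The brain of fish 6 was thus above the mean in most genes of every group, not only in that of fish 38. Likewise, skin of fish 12 was below the mean in most genes of every group except that of fish 8. The brains of fish 6 and 24 entered the selection only through the bound on the 6 brains, and skin of fish 12 did not enter it. The fish that defines a group was taken as the highest and is part of the mean, which raises that mean. No such counts over other genes are set beside these.

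Over all 56 genes, the brain of fish 6 lay within the range of the 4 brains in 46 genes, above it in 10 and below it in 0. The brain of fish 24 lay within it in 50, above in 2 and below in 4. Skin of fish 12 lay within the range of the 4 skins in 32 genes, above in 4 and below in 20. Fish 12 had no brain library, so whether its low skin values went with low brain values cannot be seen.

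The 4 genes described first were taken by a fixed ranking. Among the 10 genes whose mean reached 10 CPM in each tissue, they had the widest smaller range on each side, the sides being those where the brain farthest from the median of the 4 lay above it and those where it lay below.

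Nfu_g_1_019300 was high in fish 8 and fish 46 in both tissues. Its brain levels were 93.0 CPM in fish 8, 21.3 in fish 38, 27.3 in fish 41 and 67.9 in fish 46. Its skin levels were 65.0, 15.4, 16.2 and 32.5 CPM in the same order of fish. The fish stood in 1 order in both tissues, and brain and skin values overlapped. Outside the 4 fish, it had 39.8 and 56.3 CPM in the brains of fish 6 and 24, and 22.1 CPM in skin of fish 12. The r was 0.964.

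Nfu_g_1_004499 was highest in fish 46 in both tissues. It had 49.0, 73.2, 40.4 and 148 CPM in the brains of fish 8, 38, 41 and 46, against 172, 405, 245 and 702 CPM in their skins. Every skin was above every brain of these fish, and fish 38 was next to fish 46 in both tissues, while the order of fish 8 and 41 was exchanged. The brains of fish 6 and 24 had 75.3 and 83.9 CPM, and skin of fish 12 had 165 CPM. The r was 0.920, and 0.734 without fish 46. With TMM factors (trimmed mean of M-values) in the library sizes it was 0.882, so the gene then did not meet the selection.

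Nfu_g_1_007641 had the widest brain range of the 56 genes. Its brain levels were 13.3, 135, 36.7 and 69.4 CPM in fish 8, 38, 41 and 46, a 9.83-fold span just inside the brain bound. Its skin levels were 16.4, 166, 65.5 and 65.7 CPM. Fish 38 was highest and fish 8 lowest in both tissues, and fish 41 differed most between its tissues. Skin of fish 12 had 13.1 CPM, below the skin of fish 8, and the brains of fish 6 and 24 had 68.6 and 26.4 CPM. The r was 0.964, and 0.875 without fish 8.

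Nfu_g_1_018675 was nearly absent from some skins. It had 2.69, 30.0, 18.4 and 12.6 CPM in the brains of fish 8, 38, 41 and 46, against 0.445, 24.9, 22.2 and 5.16 CPM in their skins. The lowest skin value rested on 10 reads, and skin of fish 12 was lower still at 0.128 CPM, from 3 reads. The brains of fish 6 and 24 had 17.5 and 14.4 CPM, between the extremes of the 4 brains. Fish stood in 1 order in both tissues, highest in fish 38 and lowest in fish 8, with r = 0.973, and 0.861 without fish 8.

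**Figure D2:**
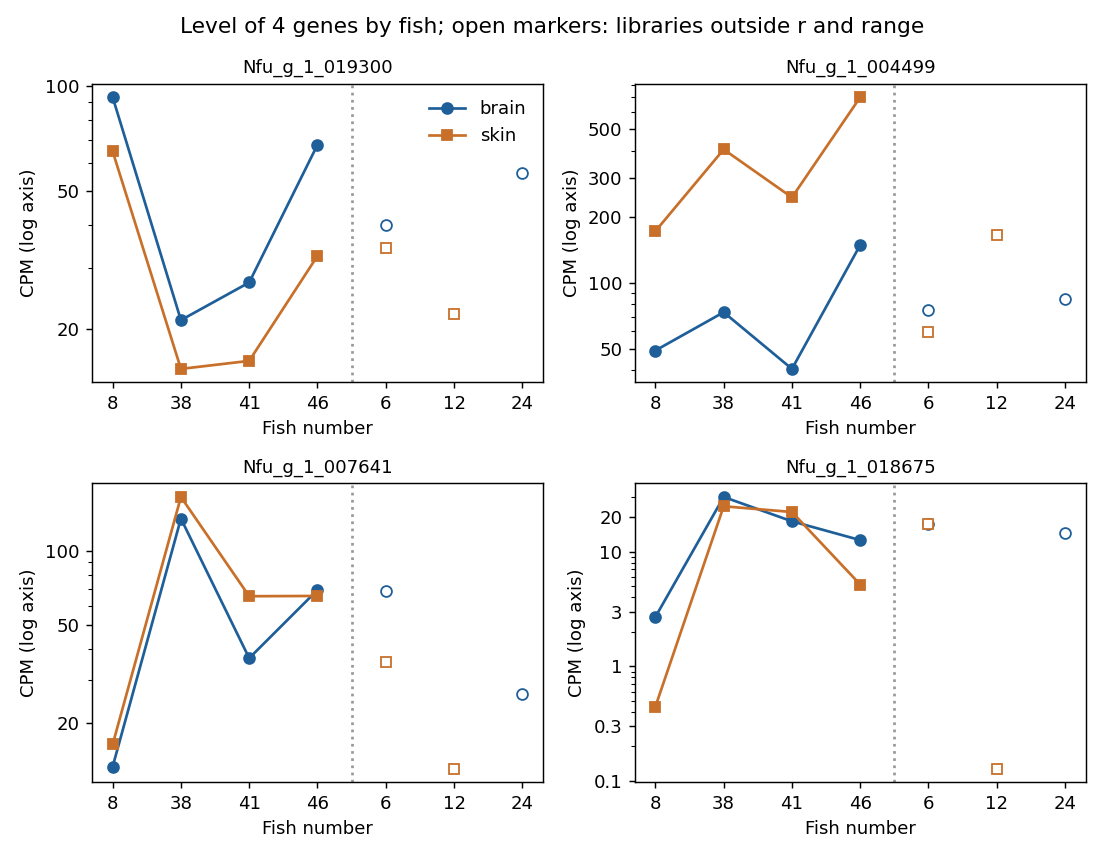
Level in CPM on a log axis, by fish number, of the 4 genes taken by the ranking, with brain as circles and skin as squares. Lines join the 4 fish of the selection, and open markers right of the dotted line are brains of fish 6 and 24, skin of fish 12 and the library labelled skin of fish 6. In Nfu_g_1_007641 and Nfu_g_1_018675 fish 38 is highest and fish 8 lowest of the 4 in both tissues.

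Further genes were singled out after their values were seen. Nfu_g_1_007730 followed Nfu_g_1_007641. It had 75.8, 527, 157 and 306 CPM in the brains of fish 8, 38, 41 and 46, against 84.0, 641, 301 and 258 CPM in their skins. Over the 8 deviations from the tissue means, the 2 genes correlated at 0.997, the highest of the 1540 pairs among the 56. The level of Nfu_g_1_007641 per gene length was 0.506 to 0.739 times that of Nfu_g_1_007730 in the 6 brains and 0.410 to 0.743 times in the 6 libraries labelled skin (ratio of the authors' RPKM). Whether reads were shared between them cannot be told from the counts, since the sources used here do not say how reads matching more than 1 gene were counted.

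Nfu_g_1_018353 set fish 41 apart. It had 42.3 CPM in the brain of fish 41, against 152 to 164 CPM in the brains of fish 8, 38 and 46. Skin of fish 41 had 48.7 CPM, against 205 to 236 CPM in the 3 other skins of these fish. The gap between fish 41 and the rest was thus wide in both tissues, while the other 3 fish lay close together, and r was 0.999 with fish 41 and 0.793 without it. The brains of fish 6 and 24 had 109 and 173 CPM, and skin of fish 12 had 427 CPM.

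Nfu_g_1_006565 set fish 38 apart. Its brain of fish 38 had 177 CPM, against 32.9 to 33.7 CPM in the brains of fish 8, 41 and 46. Its skin of fish 38 had 18.6 CPM from 277 reads, against 0 reads in the skins of fish 8 and 46 and 15 reads in skin of fish 41. The brain of fish 6 also stood high at 101 CPM, and the brain of fish 24 was at 32.0 CPM. With skins at 0 reads, the skin range of this gene depends on the pseudocount. In skin of fish 41, the brain trace alone would give 0.639 CPM, 115% of the measured 0.554 CPM. With that trace subtracted, skin of fish 41 was at 0 CPM too, so that r rested on fish 38 alone. As measured, r was 0.981, and 0.658 without fish 38.

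The selection under other pairings of brain and skin came next. With the 4 skins assigned to the 4 brains in each of the 23 other ways, the ranges stayed as they were and only r changed. The labelled pairing gave 56 genes, against 1 to 38 genes in the other 23, with a median of 6. The counts were lower the fewer skins stayed with their own brain, with overlap. The 6 pairings with 2 skins in place gave 16 to 38 genes, the 8 with 1 skin in place gave 5 to 34, and the 9 with no skin in place gave 1 to 5. In each of the 6 pairings with 2 skins in place, 12 to 15 of the genes were among the 56. The 56 were chosen for r in the labelled pairing, so this order of counts is not independent of the selection. The median r over the 193 genes was 0.560 in the labelled pairing, and -0.721 to 0.468 in the others.

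The next highest pairings both kept fish 46 in place. The exchange of the skins of fish 8 and 41 gave 38 genes, 15 of them among the 56, and the assignment of the skins of fish 38, 41 and 8 to the brains of fish 8, 38 and 41 gave 34 genes, 3 of them among the 56. Fish 46 was highest in both tissues in 26 of those 38 genes and in 27 of those 34. The third highest of the other pairings gave 18.

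Among more abundant genes the labelled pairing was not the highest. Of the 193 genes, 48 reached a mean of 10 CPM in each tissue, a bound added after the data were seen. The labelled pairing gave 10 of these 48 (20.8%). The other 23 pairings gave 0 to 18, with a median of 1, and 2 of them were above the labelled one, the same 2 pairings with fish 46 in place, at 18 and 11 genes. The lead of the labelled pairing in the full set thus came from genes below 10 CPM in at least 1 tissue.

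**Figure D3:**
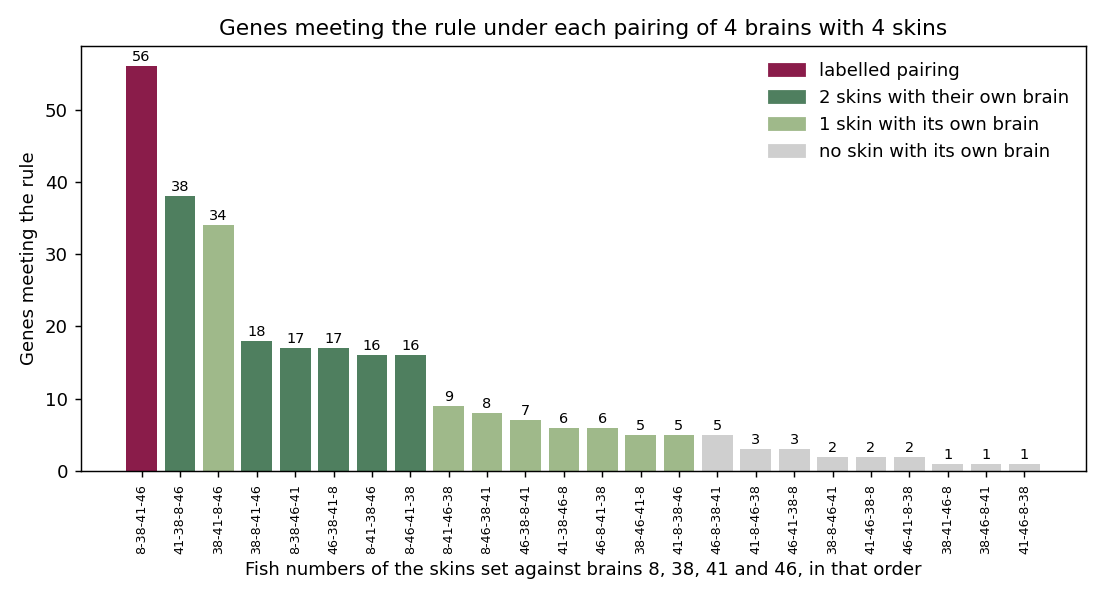
Bars give the number of genes that met the selection under each of the 24 assignments of 4 skins to 4 brains, coloured by how many skins stayed with the brain of their own fish. The labelled pairing stands first at 56, and the others run from 38 to 1.

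Leaving out a fish showed how far the 56 genes rested on it. With 3 fish, r stayed above 0.9 in 44 of the 56 genes without fish 8, in 49 without fish 38, in 48 without fish 41 and in 46 without fish 46. It stayed above 0.9 in each of the 4 cases in 22 genes, and became negative in 1 or 2 genes in each case. The whole selection repeated on 3 fish gave 49 genes without fish 8, against 1 to 11 under the 5 other pairings of the remaining fish. Without fish 46 it gave 43, against 3 to 22, and without fish 41 it gave 38, against 2 to 23. Without fish 38 it gave 53, against 1 to 48. Among the 56 were 30 of the 49 genes without fish 8 and 30 of the 43 without fish 46. So were 33 of the 38 without fish 41 and 44 of the 53 without fish 38. A high r is easier to reach with 3 points than with 4.

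The brain trace expected in skin of fish 41 was at most 10% of the measured level in most of these genes, but not in all. The trace expected from the brain of fish 41 was a median of 1.84% of the measured level in skin of fish 41, exceeded 10% of it in 11 of the 56 genes and exceeded 50% in 3. In those 11 genes fish 41 was the lowest of the 4 brains in 5 and the highest in 1. With the trace subtracted, 55 genes met the selection, and 55 of them were among the 56. The gene lost, Nfu_g_1_009680, had r = 0.968 after subtraction, and its skin range dropped under 1.5. It had 14.3, 35.7, 43.1 and 13.4 CPM in the brains of fish 8, 38, 41 and 46, against 9.29, 14.9, 22.2 and 7.25 CPM in their skins.

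The reverse mixing was looked at for the 3 genes with a mean over 20-fold higher in skin than in brain on the CPM + 0.5 scale. Their brain level was 0.239 to 0.819%, 0.352 to 1.17% and 0.191 to 0.301% of the skin level of the same fish. Over the 10 lowest of 234 genes whose skin mean reached 500 CPM, the median brain level was 0.0508% of the skin level in fish 8, 0.105% in fish 38, 0.0914% in fish 41 and 0.0193% in fish 46, with a highest value of 0.197%. These 10 genes were picked as the lowest, so their values are low by choice. The lowest value of the 3 genes, 0.191%, lay below the highest of the 10, 0.197%. The part of mixing in the brain levels of the 3 genes was not tested. The brain counts of these 3 genes were 2 to 154 reads. Without the 5 genes that differed by more than 20-fold between tissues in either direction, 51 remained.

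Depth moved with the order of the fish in some genes. The skins held 27.1 M reads in fish 41, 22.5 M in fish 8, 14.9 M in fish 38 and 9.10 M in fish 46. In 8 of the 56 genes the skin levels ran in exactly the reverse order, highest in fish 46, as in 24 of the 193 genes. With every library thinned to 9000000 reads, 54 genes met the selection, 37 of them among the 56. The 37 genes had a median of 4.80 CPM in the tissue where their mean was lower, against 1.90 CPM in the 19 that were lost. Of the 10 genes with at least 10 CPM in both tissues, 8 were kept. The part of depth in the shared order of the fish was not tested.

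The difference in mean level between tissues was not a criterion of the selection. However, r, the ranges and the brain bound all depend on level through the pseudocount. The mean level was compared between tissues over the 4 fish, in the same libraries that chose the genes. All 56 genes passed the filter on low counts. At a false discovery rate (FDR) of 0.05, 3 of them had a higher level in brain and 22 a higher level in skin (edgeR quasi-likelihood test on all genes, 4 brains against 4 skins). The 25 called genes are 44.6% of the 56, against 77.3% of the 20002 genes tested. Over all genes tested, 42.4% were called for brain and 34.9% for skin. The 56 genes were required to vary within each tissue, and this test sets the difference between tissues against that same spread. The part of that spread in their lower share of calls was not tested, so nothing is read from the lower share. Their median log2 fold change (brain minus skin) was -0.86, against 0.18 over all genes tested.

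Scaling shifted these directions. When counts were scaled by library size alone, without TMM factors, 10 of the 56 genes were called for brain and 16 for skin, beside 83.5% of all genes tested (63.8% for brain, 19.7% for skin). Their median log2 fold change was then 0.20, and that of all genes tested was 1.23. Leaving out a fish gave 5 calls for brain and 17 for skin without fish 38, beside 70.5% of all genes tested called. It gave 5 and 19 without fish 41, beside 74.8%, and 2 and 21 without fish 46, beside 71.8%. Without fish 8 it gave 3 and 24, beside 15003 of 20005 genes tested. In the fits without fish 8 and without fish 41, 55 of the 56 genes were tested. With all 12 libraries as labelled, 1 gene was called for brain and 20 for skin, beside 55.9% of all genes tested (24% for brain, 31.8% for skin). Without the library labelled skin of fish 6, 11 libraries gave 2 and 23, beside 76.3% (39.6% and 36.8%). With fish as a replicate block, 12 genes were called for brain and 29 for skin, 41 in all, beside 75.9% of all genes tested (41.9% and 34%). The block removes variation shared by brain and skin of a fish, which is what chose these genes, so nothing is read from the higher number.

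The calls are given next by the fish in which the genes were highest, as a description over few genes whose differences between groups were not tested. Of the 21 genes highest in fish 46, 13 were called, each for skin, with a median log2 fold change of -2.38 (edgeR quasi-likelihood test, FDR 0.05, as above). Of all genes tested, 77.3% were called, 34.9% for skin. The mean level of this group was a median of 4.80 CPM in brain and 9.87 CPM in skin. Of the 12 genes highest in fish 38, 1 was called for brain and 2 for skin, with a median of -0.58. Of the 9 highest in fish 8, 1 was called for brain and 3 for skin, with a median of -0.03. Of the 7 highest in fish 41, 1 was called, for brain, with a median of -0.07. Of the 7 genes where the highest fish differed between tissues, 0 were called for brain and 4 for skin, with a median of -2.06. A lean to skin was thus not particular to the genes highest in fish 46.

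Of the 4 genes of the ranking, Nfu_g_1_004499 was called. Fold changes below are on TMM-scaled counts, which set skin higher relative to brain than CPM does. Each SE is the absolute log2 fold change divided by the square root of the edgeR F statistic, so it restates the test. Nfu_g_1_004499 averaged 77.8 ± 49.1 CPM in brain and 381 ± 235 CPM in skin (SD, n = 4 each), a log2 fold change of -3.40 (SE 0.59) at an adjusted p of 0.000635 by edgeR. Its adjusted p stayed at most 0.00853 in every alternative fit run. Nfu_g_1_007641 averaged 63.7 ± 53.0 CPM in brain and 78.4 ± 62.7 CPM in skin (SD, n = 4 each), a log2 fold change of -1.41 (SE 0.80) at an adjusted p of 0.136 by edgeR. With the replicate block its edgeR adjusted p was 0.000315. The block removes variation that brain and skin of a fish share, which chose this gene, so nothing is read from that value. Without fish 8 and without the block, the edgeR adjusted p of Nfu_g_1_007641 was 0.0447. Fish 8 was the lowest of the 4 fish for this gene in both tissues. Leaving out fish 38, 41 or 46 instead gave edgeR adjusted p of 0.135, 0.241 and 0.242. It was 0.0812 by DESeq2 and 0.160 by edgeR with all 12 libraries. With library size only, the edgeR adjusted p of Nfu_g_1_007641 was 0.724, at a log2 fold change of -0.30. Apart from the block and the fit without fish 8, every alternative fit left this gene above 0.05. For Nfu_g_1_018675 the log2 fold change was -0.80 (SE 0.99, adjusted p = 0.476 by edgeR) and for Nfu_g_1_019300 it was -0.36 (SE 0.60, adjusted p = 0.593 by edgeR), and both were positive with library size only.

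**Figure D4:**
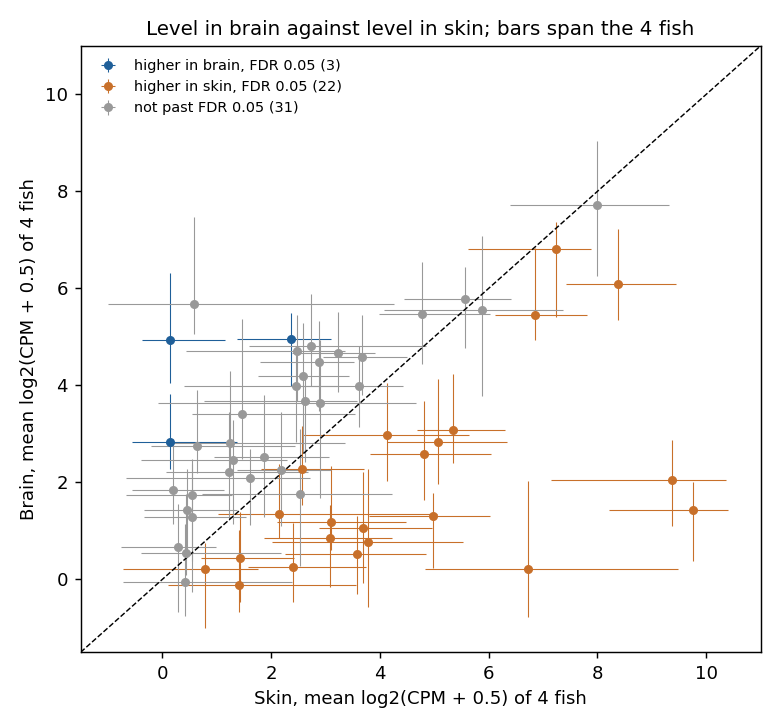
Points give the mean log2(CPM + 0.5) of the 4 fish in brain (vertical axis) against skin (horizontal axis) for the 56 genes, bars span the lowest to the highest fish, and the dashed line marks equal CPM. Colour gives the edgeR call: 3 genes for brain, 22 for skin and 31 not past FDR 0.05, on TMM-scaled counts, so that called genes can lie near the line.

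The library labelled skin of fish 6 took no part in the selection, and it was compared with each other library over the 56 genes. Over these genes its median absolute difference was 0.275 on the log2 scale from the brain of fish 41, 0.797 from that of fish 24, 0.971 from that of fish 38, 0.975 from that of fish 6, 1.08 from that of fish 8 and 1.25 from that of fish 46. From the 5 other skins it was 1.35 to 2.04. It was nearer to the brain of fish 41 than to the brain of fish 6 in 43 of the 56 genes (76.8%), against 54.1% of the 14478 genes. The brain of fish 41 was the nearest of the 6 brains in 23 of the 56 genes, against 21.2% of the 14478. That this library resembles the brain of fish 41 was known when the genes were chosen. The brain values of fish 41 entered the selection, and genes that vary between brains were favoured by it. Over the 137 other genes that met the ranges and the brain bound, the difference was 0.493 from the brain of fish 41 and 0.829 from that of fish 6.

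Single genes varied in this. Nfu_g_1_018353 had 44.4 CPM in the library labelled skin of fish 6, against 42.3 CPM in the brain of fish 41 and 109 CPM in the brain of fish 6. Nfu_g_1_007641 had 35.6 CPM there, against 36.7 CPM in the brain of fish 41 and 68.6 CPM in the brain of fish 6. Nfu_g_1_019300 lay between these brains, with 34.4 CPM there, against 27.3 CPM in the brain of fish 41 and 39.8 CPM in the brain of fish 6. Nfu_g_1_006565 had 27.1 CPM there, against 33.7 CPM in the brain of fish 41 and 101 CPM in the brain of fish 6. The brains of fish 8, 24 and 46, at 33.5, 32.0 and 32.9 CPM, were nearer still, so this gene did not single out fish 41. Nfu_g_1_018675 did not separate the brains of fish 41 and 6. It had 17.5 CPM in the library labelled skin of fish 6, 18.4 CPM in the brain of fish 41 and 17.5 CPM in the brain of fish 6.

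**Figure D5:**
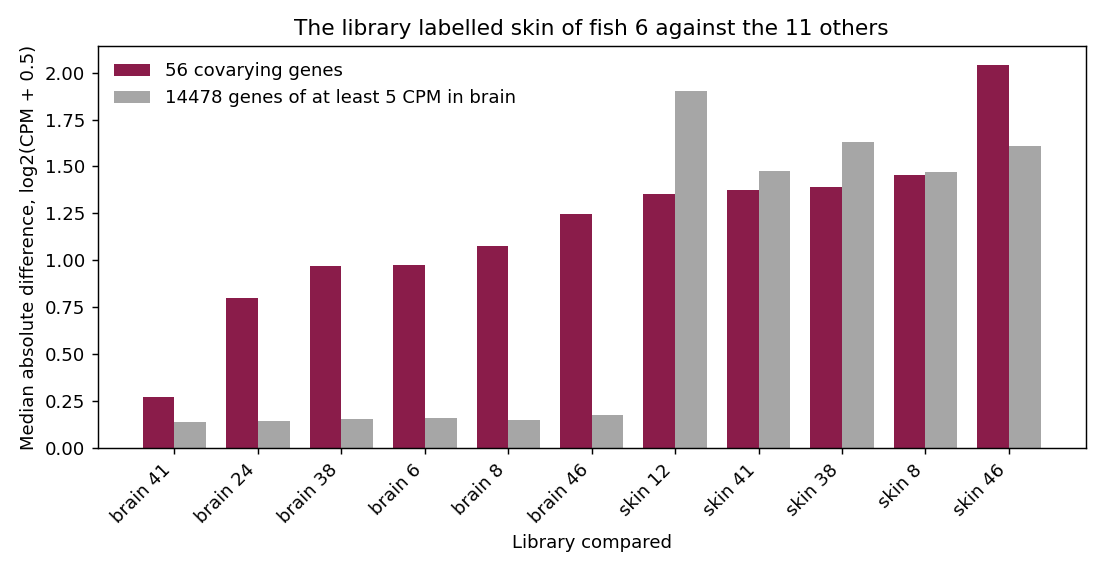
Bars give the median absolute difference in log2(CPM + 0.5) between the library labelled skin of fish 6 and each of the other 11 libraries, over the 56 genes (left bar of each pair) and over the 14478 genes reaching 5 CPM in brain (right bar). Over the 56 genes the brain of fish 41 stands lowest at 0.275 and the other brains at 0.797 to 1.25, while over the 14478 genes the 6 brains lie at 0.138 to 0.177.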

How the data were processed

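The deposited table holds, per the file headers, 1 count column and 1 RPKM column for each of 12 libraries (6 brain, 6 skin). Counts were whole numbers. The authors' RPKM gave 1 gene length per gene within a relative tolerance of 0.001 in 23212 genes with a count. The submitters' processing notes name featureCounts 1.4.3-p1, TopHat2 2.0.6 and CASAVA 1.8.4, and the labels' protocols an Illumina TruSeq kit. For genome build, annotation and strand setting, the sources used here give nothing, so overlapping or near-identical genes may share reads. For the tissue comparison, edgeR 4.0.16 was run in R 4.3.3 on the counts (TMM, default filter, robust quasi-likelihood fit, Benjamini-Hochberg adjustment over all genes tested), with DESeq2 1.42.0 as an alternative. Both the selection and the edgeR fit were run on simulated data. The outcome for the selection is not given here, and nothing is read from it. The simulated counts for the edgeR fit had 1 spread setting for every gene and no difference between fish shared by brain and skin. They were thus unlike the genes selected here, and nothing is read from them. Brain and skin of 1 number are the same fish per the labels, so fish was also fitted as a block. The genes, ranking and alternatives were chosen with earlier results of these data known. The ranking took genes whose mean reached 10 CPM in each tissue, by the smaller of the 2 ranges, and the first 2 identifiers of each side. Lists of gene names could not be applied without names.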

Additional observations from a re-analysis of the deposited data

Results flagged for a closer look

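The 10 genes whose mean reached 10 CPM in each tissue gave 20 groups of 6 library values. These were compared in CPM, not on the log2 scale of the selection, and 1 group held a library far from the other 5. It was skin of fish 38, with 166 CPM of Nfu_g_1_007641, against 13.1 to 65.7 CPM in the other libraries labelled skin. The brain of fish 38 was also the highest brain for this gene, at 135 CPM, but the next brains lay closer. Chance flags about 1 in 20 groups of unselected values, but these genes were chosen for their spread between fish, partly with this value, so that rate does not apply to them.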

How the results depend on the processing

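The number of genes meeting the selection moved by over 1.5 times with the pseudocount and with the range required. It was 115 with a pseudocount of 0.1 CPM and 36 with 1 CPM (47 and 32 of them among the 56), and 138 with a range of at least 1 and 17 with a range of at least 2. It was 44 with TMM factors over all libraries (39 among the 56), 57 with TMM within each tissue (54 among the 56), 77 and 38 with r above 0.8 and 0.95, and 66 with no bound on the brains. Leaving out each fish gave 38 to 53 (30 to 44 of them among the 56). Thinning, TMM within a tissue, the 1 CPM bound (48 genes) and the 20-fold bound were added after seeing the data. With fish as a replicate block, 41 of the 56 genes were called between tissues in place of 25. Of all 20002 genes tested, 15181 (75.9%) were called in place of 15468 (77.3%). The block removes variation shared by brain and skin of a fish, which chose these genes, so nothing is read from the 41. Leaving out each fish gave 22 to 27 of the 56 and 14160 to 15081 of all genes tested, DESeq2 gave 24 and 16790. Without fish 8, and likewise without fish 41, 55 of the 56 were tested. With library size only, the log2 fold change was 0.27 for Nfu_g_1_018675 and 0.70 for Nfu_g_1_019300, positive in place of negative. At 9000000 reads a library, 54 genes met the selection and 19 of the 56 did not, 2 of them among the 10 with at least 10 CPM in both tissues. The cause was not tested.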

Other observations

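Among the 1540 pairs of the 56 genes, 105 correlated above 0.9 over the 8 deviations from the tissue means, values that the selection itself brings close. In 1 pair the identifiers were consecutive, Nfu_g_1_009837 and Nfu_g_1_009838. They correlated at 0.954 over the 8 deviations and at 0.927 over the 6 brains, of which fish 6 and 24 entered the selection only through the brain bound. Whether these 2 share reads or a position was not tested.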
